A study of Mus musculus with 18 samples.

Results

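Kcnq1 encodes the pore-forming subunit of a voltage-gated potassium channel, and Kcne1, Kcne2, Kcne3 and Kcne4 encode small single-span membrane proteins that join it and change its gating. These 5 genes were followed through every array probe whose transcript accession maps to them, 7 probes in all out of 41174 on the array. Kcne1 and Kcne3 each had 2 probes, which carry the same accession, and Kcnq1, Kcne2 and Kcne4 had 1 each. All 7 probes passed the filter on dim probes, so all 5 genes were among the 17932 genes tested out of 19096 named on the array. The samples were thyroid glands of C57BL/6 mice at 1 month of age, weaned at 3 weeks, in 4 groups. On a normal diet there were 5 wild-type (WT) mice and 5 Glis3KO2 mice, and 4 mice of each genotype received a low-iodine diet for 6 days. Glis3 encodes a zinc finger transcription factor that the thyroid needs to make its hormones, and the labels name the knockout Glis3KO2 without describing the allele, the deleted part or the tissues it covers.

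The KCNQ1 pore opens on depolarisation, and its partner subunit decides how. With KCNE1 it gives the slow repolarising current of the heart, with KCNE2 or KCNE3 it carries potassium at rest in epithelia, and KCNE4 inhibits it. In the mouse thyroid KCNQ1 and KCNE2 form a channel at the basolateral membrane of follicular cells, where loss of Kcne2 lowers iodide uptake through the sodium/iodide symporter, encoded by Slc5a5. A low-iodine diet raises thyrotropin, whose receptor signals through cAMP.

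RefSeq promoter windows of 300 bases (build GRCm38.p6) were at hand for 3 of the 5 genes, with 2 windows each for Kcne2 and Kcne3 and 1 for Kcne4. They were searched on both strands for the cAMP response element TGACGTCA, for its short form TGACG, which reads as CGTCA on the other strand and is also contained in the full element, and for the core of the GLIS binding motif, TGGGGGGT (ACCCCCCA on the other strand). The short form stood in 2 of the 5 windows, against 20.8% of all 32851 windows. The full element stood in 0 of 5, against 1.79% of all windows, and the GLIS core in 0 of 5, against 1.53%. The windows that hold the short form are shown because cAMP is the second messenger of the thyrotropin receptor; capitals mark the match. A match is a run of letters, not a shown binding site. The Kcne2 window lies at chr16:92292139-92292438 on the plus strand and holds 1 match on each strand. The Kcne4 window lies at chr1:78816661-78816960 on the plus strand and holds 1 match.
Kcne2: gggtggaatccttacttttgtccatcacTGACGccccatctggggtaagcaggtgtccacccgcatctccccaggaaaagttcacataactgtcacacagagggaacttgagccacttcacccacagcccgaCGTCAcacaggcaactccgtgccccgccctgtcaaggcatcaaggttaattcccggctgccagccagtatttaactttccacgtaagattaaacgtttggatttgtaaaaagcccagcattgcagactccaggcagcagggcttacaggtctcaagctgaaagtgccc
Kcne4: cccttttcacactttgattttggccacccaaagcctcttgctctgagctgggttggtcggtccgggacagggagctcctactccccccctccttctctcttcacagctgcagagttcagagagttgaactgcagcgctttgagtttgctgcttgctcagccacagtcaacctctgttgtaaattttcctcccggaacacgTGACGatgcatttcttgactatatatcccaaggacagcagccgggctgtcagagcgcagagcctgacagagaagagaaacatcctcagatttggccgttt

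Levels are log2 processed signals minus the array's 75th percentile, so 0 is the 75th percentile, and levels of different probes are not comparable. Differences between groups were tested with limma over all genes, and a gene was called where its Benjamini-Hochberg adjusted p was under 0.05. Between 60.1% and 90.6% of probes per array were well above background, and the median signal per array ran from 44.9 (Glis3KO2 normal diet, replicate 4) to 191.5 (WT low-iodine diet, replicate 2); with arrays, their number limits the precision. Slides 1 to 3 carried the normal-diet arrays, and slides 4 and 5, read with another scanner model, those of the low-iodine diet, so the diet and the set of arrays cannot be told apart. Each slide held both genotypes in equal number. Arrays of the same group correlated at 0.931 to 0.987 and arrays of different diets at 0.749 to 0.836. Of 8 follicular cell markers, 7 were above background on all 18 arrays. The Glis3 probe differed between genotypes by 0.45 ± 0.42 (SE) on the normal diet (adjusted p = 0.732) and by −1.36 ± 0.47 (SE) with low iodine (adjusted p = 0.0619). On the normal diet it read near background, with means of −5.34 in WT and −4.89 in Glis3KO2. There it was well above background on 4 of 5 arrays of each genotype. It may also lie outside the deleted part, so it does not check the labels.

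Kcne1 was the member that differed between genotypes on the normal diet. With probe A_51_P211671, its brighter probe, it was 4.41-fold higher in Glis3KO2 than in WT thyroids. The 5 WT arrays read −5.17, −3.45, −2.94, −3.61 and −4.21. The 5 Glis3KO2 arrays read −2.62, −0.93, −1.0, −2.10 and −2.02. All 10 were above background, and every Glis3KO2 array lay above every WT array. The difference was 2.14 ± 0.37 on the log2 scale (SE, limma, adjusted p = 0.00987, 95% interval 1.35 to 2.93). Kcne1 was thus the 1 of 5 members called higher, where 0.513% of all genes were higher and 1.39% were called in either direction. It was also the 1 of 5 whose genotypes did not overlap, against 3.52% of all genes. Within slides 1, 2 and 3 the difference was 4.24, 1.64 and 1.59, so it was above 0 on each slide. Slide 1 held 1 array of each genotype, and its WT array, replicate 1, was the lowest of the group.

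The Kcne1 difference depended on the probe. Probe A_52_P71704 was not well above background on any of the 10 normal-diet arrays, where it read between −8.23 and −6.62, and its genotypes differed by 0.09 ± 0.30 (SE, adjusted p = 0.953 over all probes, 95% interval −0.54 to 0.73), both sides being below background. The call from the first probe was lost when the normal-diet arrays were fitted alone (adjusted p = 0.0915), and the mean of both probes, which includes the one below background, gave 1.12. Background correction by normexp gave 1.26 and a thymic epithelium covariate 3.28, each still past the threshold.

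Markers of some other cell types were lower in Glis3KO2 on the normal diet, where Kcne1 was higher and 1.39% of all genes were called. The mean of 6 of 7 thymic epithelium markers ranged from −1.98 to 1.93 in WT and from −3.23 to −0.38 in Glis3KO2, with 4 of 6 called lower. The mean of 10 skeletal muscle markers overlapped between genotypes, ranging from −3.10 to 4.17 in WT and from −3.94 to 5.62 in Glis3KO2, with 0 of 10 called. The median difference of these 10 markers was 2.18, and the SD of their mean was 2.93 in WT and 3.84 in Glis3KO2. With the muscle mean as a covariate the Kcne1 difference was 2.12. Of 8 fibroblast markers 4 were lower, of 6 squamous and basal epithelium markers 2, and of 8 cell division markers 7. The squamous and basal list shares Krt5 and Trp63 with the thymic epithelium list, so their counts are not independent. Only the thymic epithelium and skeletal muscle means were fitted as covariates. The part of these markers in the Kcne1 difference was not tested otherwise. In whole glands, fewer cells of a type and less RNA per cell cannot be told apart.

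**Figure D1:**
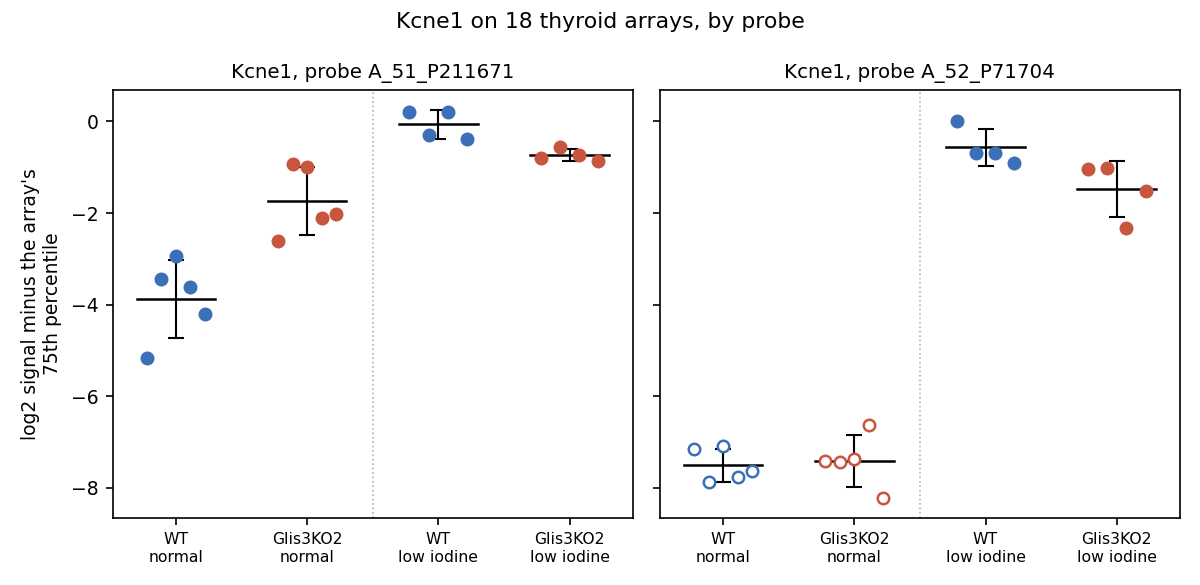
Log2 level of Kcne1 (signal minus the array's 75th percentile) on each of the 18 arrays, for each of its 2 probes; filled points are well above background, open points are not, and bars show the group mean and SD. Probe A_51_P211671 separates the genotypes on the normal diet, at −2.94 or lower in WT and −2.62 or higher in Glis3KO2, while probe A_52_P71704 is above background on the 8 low-iodine arrays and on 0 of the 10 normal-diet arrays.

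Kcne1 on the low-iodine diet lay the other way round without passing the test. With probe A_51_P211671 the WT arrays read 0.20, −0.29, 0.21 and −0.38, and the Glis3KO2 arrays −0.79, −0.57, −0.72 and −0.86. Every Glis3KO2 array was below every WT array, with a narrow gap. The difference was −0.67 ± 0.42 (SE, adjusted p = 0.333, 95% interval −1.55 to 0.21), and within slides 4 and 5 it was −0.79 and −0.56. With probe A_52_P71704, well above background on all 8 of these arrays, WT read 0.02, −0.68, −0.69 and −0.91 and Glis3KO2 −1.03, −1.02, −2.33 and −1.52. The genotypes again did not overlap, and the difference of −0.91 ± 0.34 (SE, adjusted p = 0.0863 over all probes) missed the threshold.

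The genotype difference of Kcne1 itself differed between the diets. The interaction was −2.81 ± 0.56 on the log2 scale (SE, adjusted p = 0.0232, 95% interval −3.99 to −1.63), for 1 of 5 members against 1.22% of all genes. It stayed past the threshold in each of the 18 fits that left out 1 array (adjusted p 0.0134 to 0.0493). It was lost with the skeletal muscle covariate (−2.77, adjusted p = 0.0662) and was −1.76 after normexp. Probe A_52_P71704 gave −1.0 (adjusted p = 0.324) and the mean of both probes −1.91, but A_52_P71704 was below background on all 10 normal-diet arrays and passed the filter through the low-iodine arrays, so neither value tests the interaction. In the interaction, too, the diet and the set of arrays cannot be told apart. The skeletal muscle marker mean ranged from −2.23 to 2.99 in WT and from −2.74 to 1.63 in Glis3KO2 with low iodine, with 0 of 10 called on that diet or in the interaction. The median difference of the 10 markers was −2.08 on that diet and −3.94 in the interaction. The SD of their mean was 2.23 in WT and 2.03 in Glis3KO2 with low iodine.

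Markers of other cell types were also called on the low-iodine diet, where 15.0% of all genes were called, and in the interaction, where 1.22% were. All 8 cell division markers were lower in Glis3KO2, with means of 0.27 to 0.76 in WT and −4.33 to −4.16 in Glis3KO2, and 2 of 8 were called in the interaction. Of 8 fibroblast markers 4 were lower and 1 higher (means 1.61 to 2.19 against −0.34 to 0.60), with 0 of 8 in the interaction. Of 6 endothelial markers 3 were lower (1.85 to 2.15 against 1.07 to 1.25), and 2 of 6 were called in the interaction. Of 9 smooth muscle markers 2 were lower, of 6 airway epithelium markers 2 were lower, and of 6 C cell markers 2 were higher (0.16 to 0.83 against 0.56 to 1.08). Their part in the Kcne1 interaction and in the other low-iodine calls was not tested.

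With probe A_51_P211671, the group means of Kcne1 ran upward in the order WT normal diet (−3.88 ± 0.86, SD, n = 5), Glis3KO2 normal diet (−1.74 ± 0.74, SD, n = 5), Glis3KO2 low-iodine diet (−0.74 ± 0.13, SD, n = 4) and WT low-iodine diet (−0.06 ± 0.32, SD, n = 4). Of these neighbours, the first pair passed the test, the middle pair passed it across array sets, and the last pair did not.

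Kcnq1, the pore subunit, was measured above background on all 18 arrays and stayed near the 75th percentile. On the normal diet WT read −0.51, 0.70, 0.99, 0.49 and −0.08, and Glis3KO2 read 0.24, 0.56, 0.49, 0.18 and 0.21. The Glis3KO2 arrays lay inside the WT range. The difference was 0.02 ± 0.23 (SE, adjusted p = 0.986), and its 95% interval ran from −0.46 to 0.50. The low-iodine WT arrays read 0.85, 0.52, 0.73 and 0.61 and the Glis3KO2 arrays 0.30, −0.10, 0.26 and 0.52. The genotypes did not overlap, though the highest Glis3KO2 array and the lowest WT array both round to 0.52. The difference of −0.43 ± 0.25 (SE, adjusted p = 0.303, 95% interval −0.97 to 0.11) did not pass the test. Group means ran from 0.24 ± 0.26 (SD, n = 4, Glis3KO2 low-iodine diet) through 0.32 ± 0.61 (SD, n = 5, WT normal diet) and 0.34 ± 0.17 (SD, n = 5, Glis3KO2 normal diet) to 0.68 ± 0.14 (SD, n = 4, WT low-iodine diet), and the ranges of neighbours in that order overlapped.

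Kcne2, the thyroid partner of KCNQ1, was read near background. Its probe was well above background on 4 of 5 WT and 3 of 5 Glis3KO2 arrays of the normal diet, and on 2 of 4 arrays of each genotype on the low-iodine diet. On the normal diet WT read −5.73, −5.75, −4.16, −5.27 and −4.98 and Glis3KO2 −6.20, −4.03, −6.0, −4.31 and −6.83. On the low-iodine diet WT read −5.94, −3.67, −5.79 and −5.50 and Glis3KO2 −4.19, −4.71, −6.66 and −7.14. The genotypes overlapped widely on both diets. The differences were −0.30 ± 0.65 (SE, adjusted p = 0.911, 95% interval −1.68 to 1.09) on the normal diet and −0.45 ± 0.73 (SE, adjusted p = 0.753, 95% interval −2.0 to 1.09) with low iodine. These intervals are the widest of the 5 members, so a difference of about 1 log2 unit either way was not detectable with this probe.

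Kcne3, the partner of KCNQ1 in gut and airway epithelia, was above background on all 18 arrays with both probes. With probe A_51_P336599, WT read −1.80, −1.08, −0.73, −0.69 and −1.58 and Glis3KO2 −0.96, −0.48, −1.14, −1.22 and −1.41 on the normal diet. With low iodine WT read −1.50, −1.30, −1.06 and −0.24 and Glis3KO2 −1.25, −1.58, −1.38 and −1.09. The genotypes overlapped on both diets, and the differences were 0.13 ± 0.26 (SE, adjusted p = 0.900, 95% interval −0.42 to 0.68) and −0.30 ± 0.29 (SE, adjusted p = 0.583, 95% interval −0.92 to 0.32). Probe A_52_P243425 gave 0.14 and −0.47, also without a call.

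Kcne4, which encodes the inhibitory subunit, was dim on the normal diet and brighter on the low-iodine arrays. On the normal diet WT read −5.55, −4.59, −4.78, −4.47 and −4.85 and Glis3KO2 −5.50, −5.45, −4.82, −6.72 and −4.92, with 3 of 5 Glis3KO2 arrays well above background. With low iodine WT read −3.60, −1.51, −2.67 and −3.37 and Glis3KO2 −2.32, −3.48, −3.31 and −3.82. The genotypes overlapped on both diets, and the differences were −0.63 ± 0.42 (SE, adjusted p = 0.571, 95% interval −1.51 to 0.25) and −0.45 ± 0.47 (SE, adjusted p = 0.610, 95% interval −1.43 to 0.54). WT replicate 1 on the normal diet was the lowest WT array for Kcnq1, Kcne1, Kcne3 and Kcne4 alike, and WT replicate 2 on the low-iodine diet, the array with the highest median signal, was the highest for Kcne2 and Kcne4.

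**Figure D2:**
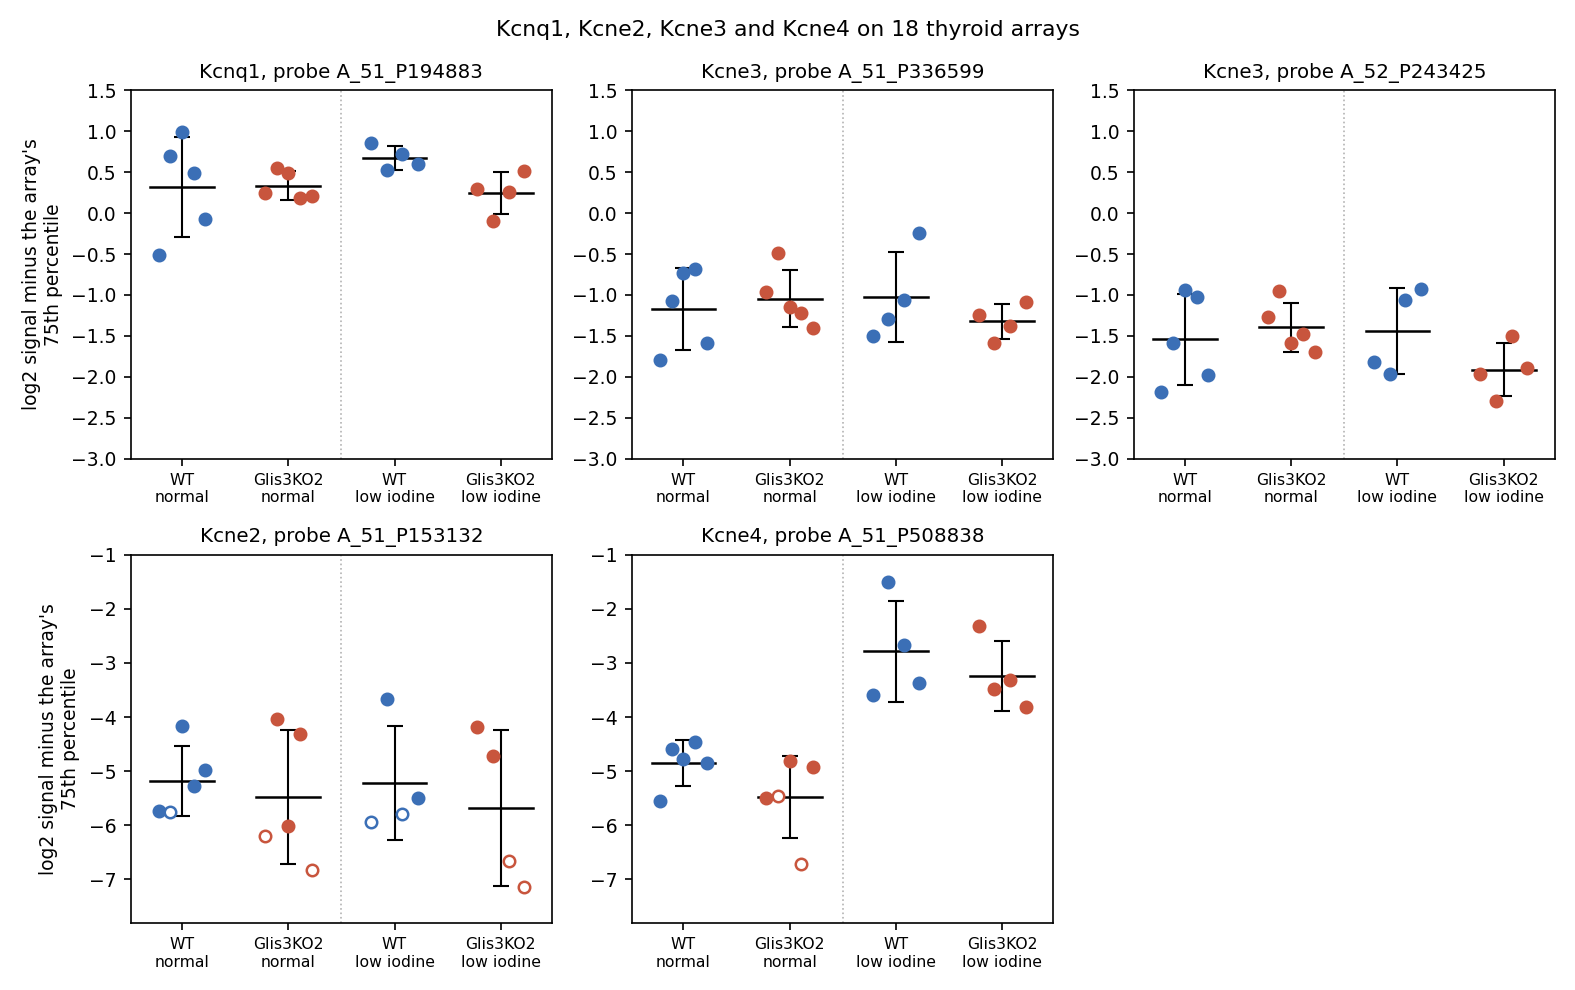
Log2 level (signal minus the array's 75th percentile) of Kcnq1, Kcne2, Kcne3 (both probes) and Kcne4 on each of the 18 arrays; filled points are well above background, open points are not, and bars show the group mean and SD. The genotypes overlap in each panel on the normal diet, Kcnq1 separates narrowly on the low-iodine diet, and Kcne2 stays between −7.14 and −3.67 in all groups.

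On the low-iodine diet 0 of 5 members passed limma's threshold, where 15.0% of all genes were called. With the brightest probe standing for each gene 0 of 5 had an unadjusted p under 0.05, while the other Kcne1 probe, A_52_P71704, had 0.0153. The share of all genes under that unadjusted cutoff is not given, so this count has no reference. The 5 differences all lay below 0, from −0.67 to −0.30, under the main scaling; quantile normalisation (0.10) or leaving out WT replicate 2 (0.06) or Glis3KO2 replicate 4 (0.03) turned Kcne2 above 0. The genotypes did not overlap for 2 of 5 members, Kcne1 and Kcnq1, against 19.7% of all genes. The median difference of all genes was 0.05 on the normal diet and −0.02 on the low-iodine diet. The interaction of Kcnq1, Kcne2, Kcne3 and Kcne4 had adjusted p-values of 0.593, 0.961, 0.664 and 0.927. A further relative on the array, listed as Kcne1l, was well above background on 4 of 18 arrays and differed by −0.58 ± 0.80 (SE, adjusted p = 0.842) on the normal diet.

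**Figure D3:**
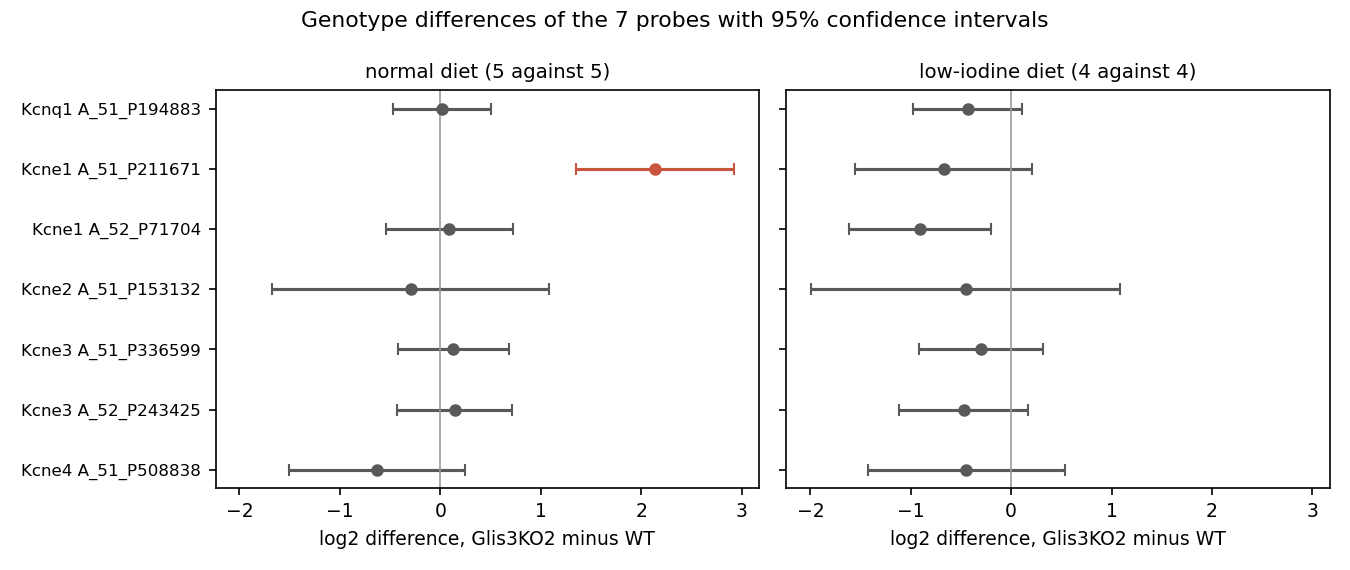
Log2 difference, Glis3KO2 minus WT, for each of the 7 probes on the normal diet (left) and the low-iodine diet (right); points are limma estimates over all probes, bars their 95% confidence intervals, and the red point passed adjusted p of 0.05. Kcne1 probe A_51_P211671 on the normal diet, at 2.14, is the point that passed.

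Between the diets, which are also the array sets, 2 of 5 members passed in WT against 75.9% of all genes, and 2 of 5 in Glis3KO2 against 74.4%. They were Kcne1 and Kcne4 in both genotypes, each higher on the low-iodine arrays. With probe A_51_P211671, Kcne1 differed by 3.81 ± 0.40 (SE, adjusted p = 1.59e-07) in WT and by 1.00 ± 0.40 (SE, adjusted p = 0.0308) in Glis3KO2. The second of these was lost in 10 of 30 alternatives, among them the fits without Glis3KO2 replicate 1, 4 or 5 of the normal diet or 1, 2 or 3 of the low-iodine diet (0.78 to 1.02, adjusted p 0.0505 to 0.0848), and fell to 0.19 with median scaling. Kcne4 differed by 2.06 ± 0.44 (SE, adjusted p = 4.46e-04) in WT and by 2.25 ± 0.44 (SE, adjusted p = 2.15e-04) in Glis3KO2, which quantile normalisation brought to 0.73 and 1.06 and below the threshold. The 2 Kcne1 probes disagreed in size. The second, A_52_P71704, differed by 6.94 ± 0.32 in WT and 5.94 ± 0.32 in Glis3KO2 (SE, limma, adjusted p = 5.72e-12 and 3.94e-11 over all probes). These sizes rest on normal-diet values below background. Probe A_52_P71704 was below background on all 10 normal-diet arrays and above it on all 8 low-iodine arrays. That pattern held for 1919 of 41174 probes (4.66%), and the reverse for 66 (0.160%). Among 6862 genes with several probes, 145 (2.11%) had, like Kcne1, 1 probe of that kind and 1 above background throughout.

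With probe A_51_P211671, Kcne1 showed the largest genotype difference by size of the 81 Kcn genes measured on the normal diet under the main scaling, and ranked 18 of 81 on the low-iodine diet. Kcne4, Kcne2, Kcne3 and Kcnq1 ranked 20, 42, 59 and 80 on the normal diet. The set takes every measured gene whose symbol starts with Kcn, so it includes Kcne1l, Kcnmb4os1 and the long noncoding RNA Kcnq1ot1. Of 76 other measured Kcn genes, 2 were higher and 0 lower on the normal diet, where 1.39% of all genes were called (median difference 0.10). Kcnc4, a voltage-gated channel of the Shaw family, was 3.32-fold higher (1.73 ± 0.32 SE, adjusted p = 0.0113, lost with the replicate block, the normal-diet arrays alone or the thymic epithelium covariate, at 0.0542, 0.0954 and 0.351). Kcnj15, an inward rectifier, was 1.69-fold higher (0.76 ± 0.18 SE, adjusted p = 0.0429), a call lost in 21 of 32 alternatives; the difference was 0.37 with normexp (adjusted p = 0.225) and 0.32 with the thymic epithelium covariate (adjusted p = 0.728).

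Of these 76 genes, 3 were higher and 1 lower on the low-iodine diet, where 15.0% of all genes were called (median −0.03). Kcna5, a Shaker-family channel, was 3.87-fold higher (1.95 ± 0.33 SE, adjusted p = 8.81e-04), and Kcns3, a silent subunit that modifies other channels, was 3.09-fold higher (1.63 ± 0.29 SE, adjusted p = 0.00128). Kcna4, another Shaker-family channel, was at least 2.58-fold higher under the main scaling (adjusted p = 0.0258), being well above background on 3 of 4 Glis3KO2 and 0 of 4 WT arrays. That call was lost in 8 of 31 alternatives, and with normexp the fitted difference was 0.32 on the log2 scale (adjusted p = 0.457). Kcnab2, a cytosolic beta subunit, was 1.93-fold lower (adjusted p = 0.0391, lost in 12 of 32 alternatives, and −0.52 with normexp, at 0.152).

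**Figure D4:**
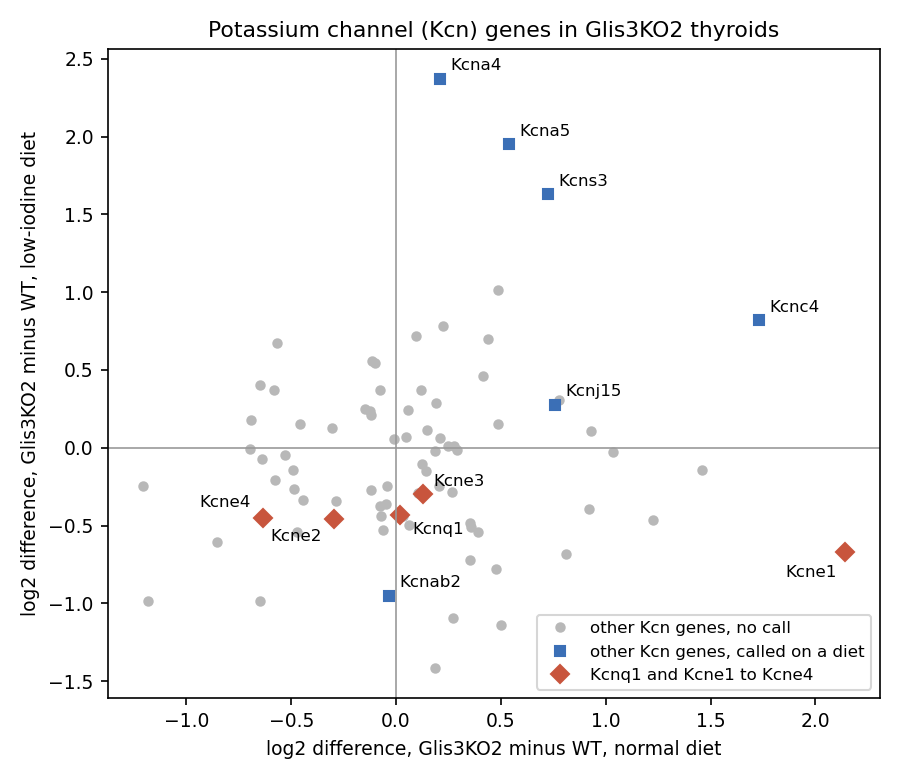
Log2 difference, Glis3KO2 minus WT, on the normal diet (x axis) and the low-iodine diet (y axis) for the 81 Kcn genes measured; diamonds are Kcnq1 and Kcne1 to Kcne4, squares other genes called on a diet, grey points the rest. Kcne1 lies furthest right, at 2.14, and all 5 diamonds lie below 0 on the y axis.

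A list of partners and regulators of KCNQ1 channels held 23 measured genes, among them Slc5a5, whose iodide uptake depends on the channel rather than the reverse. With limma 0 of 23 were called on the normal diet, where 1.39% of all genes were (6 at an unadjusted p under 0.05, median 0.00). The share of all genes under that unadjusted cutoff is not given, here or for the lists below, so such counts have no reference. On the low-iodine diet 2 were higher and 1 lower, where 15.0% of all genes were called (median 0.03). The lower gene was Slc5a5, 15.1-fold lower in Glis3KO2 (−3.92 ± 0.43 SE, adjusted p = 2.69e-05). The higher genes were Rab5a, a GTPase of early endosomes (0.49 ± 0.11 SE, adjusted p = 0.00883, and 0.00661 to 0.519 over its alternatives), and Akap9, the scaffold that ties protein kinase A to KCNQ1 (0.59 ± 0.17 SE, adjusted p = 0.0283, lost in 10 of 32 alternatives and down to 0.32 without scaling, at 0.472). Sgk1, the kinase that raises KCNQ1 surface level, differed by 0.80 ± 0.37 (SE, adjusted p = 0.364) on the normal diet.

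The sodium-potassium pump loads the cells with the potassium that the channel returns. With limma 0 of 16 genes of its list were called on the normal diet, where 1.39% of all genes were. Of these 16, 1 had an unadjusted p under 0.05, and the median difference was −0.03. On the low-iodine diet, against 15.0% of all genes called, 2 of 16 were lower (median −0.09), both FXYD subunits that tune the pump. Fxyd4 was 2.44-fold lower (adjusted p = 0.00451) and Fxyd5 1.77-fold lower (adjusted p = 0.0304, lost in 7 of 32 alternatives, at up to 0.131). Of 17 cotransporters, exchangers and chloride channels, 1 was lower on the normal diet, against 1.39% of all genes called (median 0.11). It was Slc26a4, the apical anion exchanger pendrin (−2.48 ± 0.35 SE, adjusted p = 0.00371, and 0.0679 and 0.0723 with the normal-diet arrays alone and with the thymic epithelium covariate). With low iodine 2 of 17 were higher, again against 15.0% (median −0.15), the chloride channel Clcn2 (0.93 ± 0.25 SE, adjusted p = 0.0181, lost in 5 of 32 alternatives and down to 0.48 with normexp, at 0.131) and the monocarboxylate transporter Slc5a8 (0.87 ± 0.26 SE, adjusted p = 0.0309, lost in 9 of 32 alternatives, at up to 0.242).

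Of 15 measured thyroid hormone synthesis genes, which share Slc5a5 and Slc26a4 with the lists above, 2 were higher and 1 lower on the normal diet (median 0.15), against 1.39% of all genes called, and 1 was higher and 3 lower on the low-iodine diet (median −0.50), against 15.0%. The transcription factor Nkx2-1 was among the higher genes on the normal diet, by 0.61, a call lost in 15 of 32 alternatives (adjusted p up to 0.404). With low iodine Nkx2-1 was higher by 0.70 (adjusted p = 0.00556, lost with median scaling and without scaling, at 0.0526 and 0.233). The lower genes on that diet included Slc5a5 and the iodotyrosine deiodinase Iyd (−0.72), whose call was lost in 9 of 32 alternatives (adjusted p up to 0.303).

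Kcne1 and Kcne2 lie on chromosome 16 with 3 protein-coding genes between them, 2 of them measured; Kcnq1 and Kcne3 lie on chromosome 7 and Kcne4 on chromosome 1. The nearest 2 measured protein-coding genes on each side of the members were 18 in all, and 0 were called on the normal diet with limma, against 1.39% of all genes (5 at an unadjusted p under 0.05, range −1.54 to 1.01). Next to Kcne1, Smim11 differed by −0.18, Fam243 by 0.47, Rcan1, an inhibitor of calcineurin, by −0.30, and Clic6, a chloride intracellular channel protein, by −1.54 (adjusted p = 0.0618, and 0.0262 to 0.518 over its alternatives). Slc5a3, the myo-inositol cotransporter that can associate with KCNQ1, lies on the far side of Kcne2 and differed by 1.01 (adjusted p = 0.0724, and 0.00485 to 0.598 over its alternatives). With low iodine 3 of 18 were called, where 15.0% of all genes were: Cdkn1c beside Kcnq1 (1.06, adjusted p = 0.00267, and up to 0.117 over its alternatives) and Scg2 beside Kcne4, also 1 of the C cell markers (1.37, adjusted p = 0.0110, and up to 0.130 over its alternatives), were higher, and Rcan1 was lower (−1.06, adjusted p = 0.0108, and 0.00304 to 0.0793 over its alternatives). Kcnq1ot1, the long noncoding RNA antisense to Kcnq1, had 6 probes, and the brightest differed by 0.06 ± 0.40 (SE, adjusted p = 0.973) on the normal diet and 0.24 ± 0.44 (SE) with low iodine (adjusted p = 0.783).

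The genes whose levels followed each member most closely over the 18 arrays, after each diet's mean was subtracted, were ranked by Pearson r among 14379 genes (14380 for Kcne2). The points share an array and its scaling, genotype means were not subtracted, and r is a description. Values within each diet come from the same arrays that picked the genes. For Kcne1 they were Rhbg, an ammonium transporter (0.892), Ciapin1 (0.882), Litaf (0.877) and Tfrc, the transferrin receptor (0.873). Rhbg and Tfrc also followed it within each diet (0.932 and 0.855, 0.872 and 0.903), while Ciapin1 and Litaf did so on the normal diet (0.953 and 0.933) and not on the low-iodine diet (−0.03 and 0.23). For Kcnq1 they were Tmem273 (0.905), Ccdc102a (0.894), Rrad (0.883) and S100a4 (0.846). Kcne2 had Rab26 (0.798), Ocel1 (0.796), Rpp38 (0.761) and Vil1 (0.754), and Kcne3 had Arl6ip4 (0.807), Rsu1 (0.741), Arap3 (0.714) and Cd38 (0.705). Kcne4 had Gab3 (0.808), Ikbke (0.805), the potassium channel Kcnk6 (0.799) and Trim12c (0.783). No gene stood in more than 1 of these 5 lists of 4.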

How the data were processed

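Thyroid RNA (50 ng, amplified to cDNA, of which 5 ug was labelled) was hybridised to 18 Agilent 1-colour mouse arrays, per the labels' protocols. The deposited scanner files hold processed intensity per spot from Agilent Feature Extraction (12.0.0.7 or 12.0.3.1, per the file headers); the authors' value table holds the same intensity and was not used further. Control and flagged spots were left out, which left 82 probes without a value on some array. Spots of a probe were averaged, and log2 levels were taken minus each array's 75th percentile. Of 41174 probes, 28223 (68.5%) matched a RefSeq gene by accession. Probes well above background on at least 4 arrays were kept (26523), and the brightest stood for its gene. Group means were fitted to all 18 arrays with limma 3.58.1 (R 4.3.3), with Benjamini-Hochberg adjustment over 17932 genes and a threshold of 0.05; the procedure was tested on simulated data. Fits per probe were adjusted over the 26523 probes. Alternatives are given in the closing section; normexp used the spots' median signal because the files hold no mean signal. Replicate numbers come from the labels, and same-numbered arrays correlated at −0.04 to 0.32 in their deviations. Differently numbered arrays were not compared, so whether the numbers pair the samples is not settled. The main fit took the samples as unpaired, and the replicate block was an alternative. Replicates were taken as separate mice, as the labels describe them, though the labels do not say whether glands were pooled. The members and lists were chosen with earlier results of these data known. Named list genes were those past the threshold, up to 4 a list and contrast by smallest p; the neighbours, Glis3, Sgk1, Kcne1l and Kcnq1ot1 were named beside them. Some genes that the rule names are not reported here.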

Additional observations from a re-analysis of the deposited data

Results flagged for a closer look

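The genotype difference of Kcne1 was not the same on both diets. With probe A_51_P211671 it was 2.14 on the normal diet and −0.67 on the low-iodine diet, and the test of the difference between them, the interaction term, gave −2.81 ± 0.56 on the log2 scale (SE, adjusted p = 0.0232). Every Glis3KO2 array lay above every WT array on the normal diet and below every WT array on the low-iodine diet, although the second difference did not pass its own test. The gene's other probe gave −1.0 (adjusted p = 0.324) and was below background on the normal-diet arrays. The interaction call was lost with the skeletal muscle covariate. The diets lay on different slides and scanner models, so the diet and the set of arrays cannot be told apart here.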

How the results depend on the processing

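Each result was recomputed under up to 33 alternatives, of which 18 left out 1 array. With its brighter probe, alone or averaged with the dim one, the Kcne1 difference on the normal diet stayed above 0 in all of them (1.12 to 3.28). It missed the threshold with the normal-diet arrays fitted alone (2.14, adjusted p = 0.0915) and with the other probe, an alternative chosen after seeing the data (0.0908, adjusted p = 0.945), which was below background on those arrays and so carries no direction. Without 1 array it lay between 1.82 and 2.37, past the threshold each time. No other member was called between genotypes on either diet under any alternative run, but small values turned sign. For Kcnq1 on the normal diet (0.02) these were quantile normalisation (−0.00569), median scaling (−0.00729), no scaling (−0.14), array weights (−0.19), the skeletal muscle covariate (−0.00895) and fits without 1 array (−0.19 to 0.19). For Kcne2 they were normexp (0.0676), the thymic epithelium covariate (0.65) and fits without 1 array (−0.66 to 0.0429) on the normal diet, and quantile normalisation (0.10) and fits without 1 array (−0.95 to 0.0638) on the low-iodine diet. For Kcne3 on the normal diet they were no scaling (−0.0233), array weights (−0.0566) and fits without 1 array (−0.0258 to 0.25), and for Kcne4 normexp (0.0595). The interaction of Kcne2 turned with quantile normalisation (0.39), median scaling (0.0162), array weights (0.52), the muscle covariate (0.34) and fits without 1 array (−0.65 to 0.36), and that of Kcne4 with normexp (−0.36), the thymic covariate (−0.27) and fits without 1 array (−0.12 to 0.61). Smim11 turned with the thymic covariate on the normal diet (0.0904), and on the low-iodine diet with quantile normalisation (−0.0147), no scaling (−0.19), array weights (−0.11) and fits without 1 array (−0.0367 to 0.24). Fam243 turned on the low-iodine diet with array weights (0.12) and fits without 1 array (−0.64 to 0.24). The interaction of members was called for 0 with the muscle covariate. The diet difference was called for 4 members in WT and 3 in Glis3KO2 with median scaling, for 3 in WT with normexp or the thymic covariate, and for 1 in Glis3KO2 with quantile normalisation, array weights and some fits without 1 array (1 to 2). The cause of these changes was not tested. With the replicate block the Kcne1 difference was 2.14 (adjusted p = 0.00419) and no member's call changed; over all genes the calls went from 249 to 160 on the normal diet and from 2687 to 2759 on the low-iodine diet.

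Calls on the normal diet over all genes were few and depended on the fit: 249, against 3 with those arrays alone, 9 with the thymic covariate, 992 with array weights, and 123 (without Glis3KO2 replicate 3) to 675 (without Glis3KO2 replicate 4) without 1 array. On the low-iodine diet 2687 became 1642 with median scaling and 1673 with those arrays alone. Without scaling, the share of calls that were lower went from 63.1% to 90.6% on the normal diet and from 47.9% to 86.5% on the low-iodine diet, and with median scaling to 73.1% on the normal diet. Kcne2 had no value under the stricter filter on dim probes, and blocks of slide or replicate give none between diets. Signal over background limits Kcne2 and, on the normal diet, Kcne4 and the second Kcne1 probe.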
